A study of Homo sapiens with 2 samples.

Results

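The enzymes of the methionine and S-adenosylmethionine cycle were examined in HL-60, an established human line of leukaemic promyelocytes. The members are 9 genes listed by name for their place in the pathway. Earlier results of these data were known when they were chosen. They are MAT2A, MAT2B, AHCY, AHCYL1, MTR, MTRR, CBS, CTH and MTAP. Of these, 8 had a probe set that carries only their own symbol, out of 18404 genes named in this way on the array. The data are 2 Affymetrix Human Gene 1.0 ST arrays of total RNA, labelled replicate 2 and replicate 1 of the wild-type line, with no treatment and no other genotype, so that the groups number 1 and no test between groups exists. The stated interest of the series is the link between DNMT1, the maintenance DNA methyltransferase, RNA, DNA methylation and expression. Separate cultures are not stated for the replicates, and their spread may therefore be technical. All values below are log2 signals made with RMA, and every difference is replicate 2 minus replicate 1.

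S-adenosylmethionine (SAM) is the methyl donor of DNA, RNA, histone and small-molecule methyltransferases. Methionine adenosyltransferase makes it from methionine and ATP, and each methyl transfer leaves S-adenosylhomocysteine, which inhibits the methyltransferases until it is hydrolysed to homocysteine and adenosine. Homocysteine is then either methylated back to methionine with a methyl group from folate, or drawn off through cystathionine to cysteine and glutathione. SAM also feeds polyamine synthesis, whose by-product methylthioadenosine is recycled to methionine by a salvage route.

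The cycle enzymes were above background on both arrays, and they differed little between the arrays except for CTH, the transsulfuration enzyme that makes cysteine, which was 3.72-fold higher on replicate 2. All 8 measured members exceeded the 95th percentile of 359 olfactory receptor genes, a background set of sensory genes (2.88 on replicate 2 and 2.98 on replicate 1). Over all named genes 55.8% did so. A stricter threshold, the 95th percentile of 116 keratin-associated protein, bitter taste receptor and beta-defensin genes, lay at 5.22 on replicate 2 and 5.40 on replicate 1. It was exceeded on both arrays by 5 of the 8 members, against 17.1% of all named genes. A single gene, CTH, differed by more than 1 between the arrays. Of all named genes 1.96% did so, 1.08% being higher and 0.88% lower on replicate 2. Since the members were chosen with earlier results known, this count is no independent result beside the 1.96%. In such bulk RNA fewer expressing cells and less RNA per cell cannot be told apart.

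Each of the 8 members was read by 1 probe set. Because probe sets differ in how well their probes bind, the members are not ranked by signal here. The thresholds do set each signal against those of other genes. The same limit therefore applies to every call above background, and to the highest and lowest genes named per list. The difference of a gene between the arrays is compared across genes. Over all named genes the difference had a median of -0.04 and an SD of 0.39, which corresponds to an SD of 0.28 for a single array, and the arrays correlated with r = 0.974 across genes, which are not independent replicates. Of the 5 measured promyelocyte markers, all granule proteins, 5 were above the olfactory threshold, against 55.8% of all named genes. AZU1 was close to the threshold, at 3.19 on replicate 2 and 3.01 on replicate 1. Lower on replicate 2 were 3 of the 5, CTSG, PRTN3 and MPO, while ELANE (0.24) and AZU1 (0.18) were higher. The median difference of the 5 was -0.73, and the lowest was -1.75. Of 10 measured T cell, B cell, epithelial and erythroid markers, 1 was above the olfactory threshold, against the same 55.8%. It was the B cell gene CD79A, also close to the threshold, at 3.24 on replicate 2 and 3.02 on replicate 1.

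**Figure D1:**
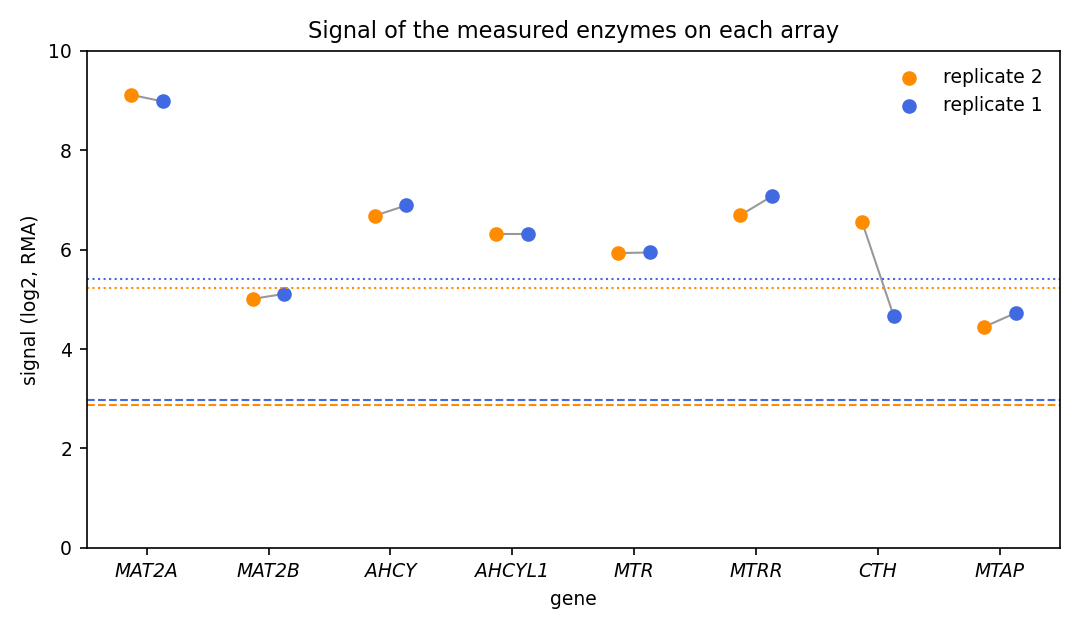
Signal (log2, RMA, y axis) of the 8 measured cycle enzymes (x axis) on replicate 2 (orange) and replicate 1 (blue), each point being 1 array. Dashed lines are the olfactory threshold and dotted lines the second threshold of each array. All points lie above the dashed lines, and CTH is the gene whose points are farthest apart, at 6.56 on replicate 2 and 4.67 on replicate 1.

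Sequence before the transcription start is shown for CTH, the member that differed, for MAT2A, which makes SAM, and for MTAP, the salvage enzyme of 9p21, because these 3 have a single start in the RefSeq promoter table and because CpG dinucleotides, the sites of DNA methylation, can be seen in them. Each run covers 250 bases that end just before the start, on the plus strand of GRCh38.p14, at chr1:70411018-70411267 for CTH, chr2:85538918-85539167 for MAT2A and chr9:21802386-21802635 for MTAP. Capitals mark CpG dinucleotides.
CTH: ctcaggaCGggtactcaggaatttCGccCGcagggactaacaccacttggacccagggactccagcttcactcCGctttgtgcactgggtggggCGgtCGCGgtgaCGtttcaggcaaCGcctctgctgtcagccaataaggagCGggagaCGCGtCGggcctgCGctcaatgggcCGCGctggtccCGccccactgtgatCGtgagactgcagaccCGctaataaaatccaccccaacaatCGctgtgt
MAT2A: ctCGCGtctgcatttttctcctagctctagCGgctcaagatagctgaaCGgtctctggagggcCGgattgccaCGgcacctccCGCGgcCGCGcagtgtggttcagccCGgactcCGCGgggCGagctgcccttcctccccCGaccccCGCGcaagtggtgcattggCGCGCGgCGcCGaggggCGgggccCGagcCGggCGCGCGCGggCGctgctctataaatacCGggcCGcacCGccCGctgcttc
MTAP: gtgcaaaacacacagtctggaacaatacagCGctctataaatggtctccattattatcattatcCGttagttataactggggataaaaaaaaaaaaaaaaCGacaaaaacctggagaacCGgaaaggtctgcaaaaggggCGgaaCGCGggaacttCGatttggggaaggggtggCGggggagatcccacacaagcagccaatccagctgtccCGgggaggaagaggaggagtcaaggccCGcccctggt

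The windows held 20 CpG in CTH, 34 in MAT2A and 11 in MTAP, against a median of 11 over all 35116 promoters of the table. The ratio of observed to expected CpG was 0.84 in CTH, 1.06 in MAT2A and 0.72 in MTAP, and its median over all promoters was 0.56. The table held 16 windows for 8 of the 9 members, CBS included, since some genes have several starts, and MTRR had none. Of the 16 windows 11 held more CpG than the median of all promoters, and 7 of the 8 members had at least 1 such window. Members with several windows had more chances of this, and no share per gene over all genes was computed. The starts of AHCYL1 spanned the range from 0 to 18 CpG and those of MAT2B from 1 to 25. The arrays do not say which start was used, and methylation of these windows was not measured here.

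**Figure D2:**
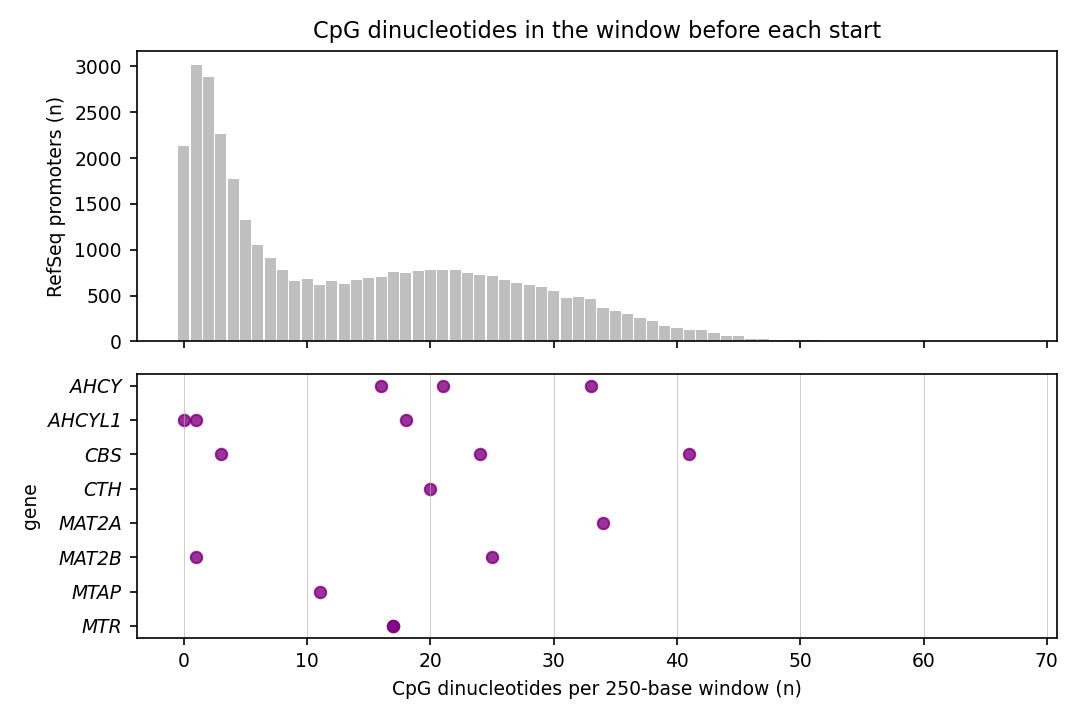
CpG dinucleotides per 250-base window before the start (x axis): the upper panel is a histogram of all 35116 RefSeq promoters (y axis, number), and each point of the lower panel is 1 start of the gene named on its y axis. MAT2A has 34, CTH 20 and MTAP 11 CpG, beside a median of 11 over all promoters, and the MTR starts coincide at 17.

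Promoter motifs were searched on both strands of the same windows. The GC box GGGCGG, bound by SP1-type factors, was present in 11 of the 16 windows and in every one of the 8 members, while 42.6% of all promoters held it. The CCAAT box, searched as CCAAT, was in 9 windows of 7 members, and 32.0% of all promoters held it. The MTR windows overlap almost fully and are not independent. The percentages are per promoter and are to be read beside the window counts only. A gene with several windows has more chances to hold a motif, and no share per gene was computed. The E-box CACGTG, a site of MYC and related factors, was in 0 of the 16 windows (6.34% of all promoters), as was the amino acid response motif TGATGNAAT (0.888% of all promoters). Absence of these letters says nothing of sequence outside the windows.

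Both SAM synthesis genes gave similar signals on the 2 arrays. MAT2A, the catalytic subunit used outside the adult liver, read 9.11 on replicate 2 and 8.98 on replicate 1 (9.05 ± 0.09, SD, n = 2), above both thresholds. Its difference of 0.13 was within the spread of single genes, since 71.0% of all named genes differed by at least as much. MAT2B, the regulatory subunit, read 5.01 on replicate 2 and 5.11 on replicate 1 (5.06 ± 0.07, SD, n = 2), above the olfactory threshold and below the second on both arrays. Its difference was -0.10. MAT1A, the paralog that is typical of adult liver, was not above background, at 2.08 on replicate 2 and 2.42 on replicate 1.

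The genes of the hydrolysis step also differed little. AHCY, the hydrolase of S-adenosylhomocysteine, read 6.68 on replicate 2 and 6.89 on replicate 1 (6.78 ± 0.15, SD, n = 2), a difference of -0.21. RefSeq lists 8 AHCY pseudogenes, 1 of MAT2A and 2 of MTAP, so these signals are uncertain where probes match a copy. AHCYL1, a related protein without known hydrolase activity that binds the inositol trisphosphate receptor, read 6.31 on both arrays. The deposited values of AHCYL1 were identical to the last digit, and an SD of 0 from 2 arrays does not show a smaller error than that of other genes. Its paralog AHCYL2 was above the olfactory threshold only, at 4.37 on replicate 2 and 4.51 on replicate 1.

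The remethylation enzymes were above both thresholds on both arrays. MTR, the cobalamin-dependent methionine synthase, read 5.93 on replicate 2 and 5.94 on replicate 1 (5.94 ± 0.01, SD, n = 2). MTRR, the reductase that reactivates it, read 6.69 on replicate 2 and 7.07 on replicate 1 (6.88 ± 0.27, SD, n = 2). The MTRR difference of -0.38 was the lowest among the members, yet 28.9% of all named genes differed by at least as much.

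The largest difference among the members was that of a transsulfuration enzyme. CTH, cystathionine gamma-lyase, read 6.56 on replicate 2 and 4.67 on replicate 1 (5.61 ± 1.34, SD, n = 2). On replicate 2 it exceeded both thresholds, and on replicate 1 the olfactory one only. The difference of 1.89 ranked 10 among the 18404 named genes by rise and 4 among the 10262 that were above the olfactory threshold on both arrays. In either direction 13 genes differed by more. Among the 1913 genes within 0.5 of the mean signal of CTH the difference had an SD of 0.45. With 1 array on each side the difference has no replicate check, and no p-value was computed. The other 7 members lay between -0.38 and 0.13, and their median was -0.10, against -0.06 with CTH. With 2 arrays no correlation of patterns can be formed, so no genes of like pattern are named.

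CBS, cystathionine beta-synthase, which forms cystathionine ahead of CTH, could not be read on its own. Its probe set also carries LOC102724560, a second RefSeq locus, and read 3.88 on replicate 2 and 3.50 on replicate 1. That signal was above the olfactory threshold and below the second on both arrays, and cannot be assigned to either symbol.

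**Figure D3:**
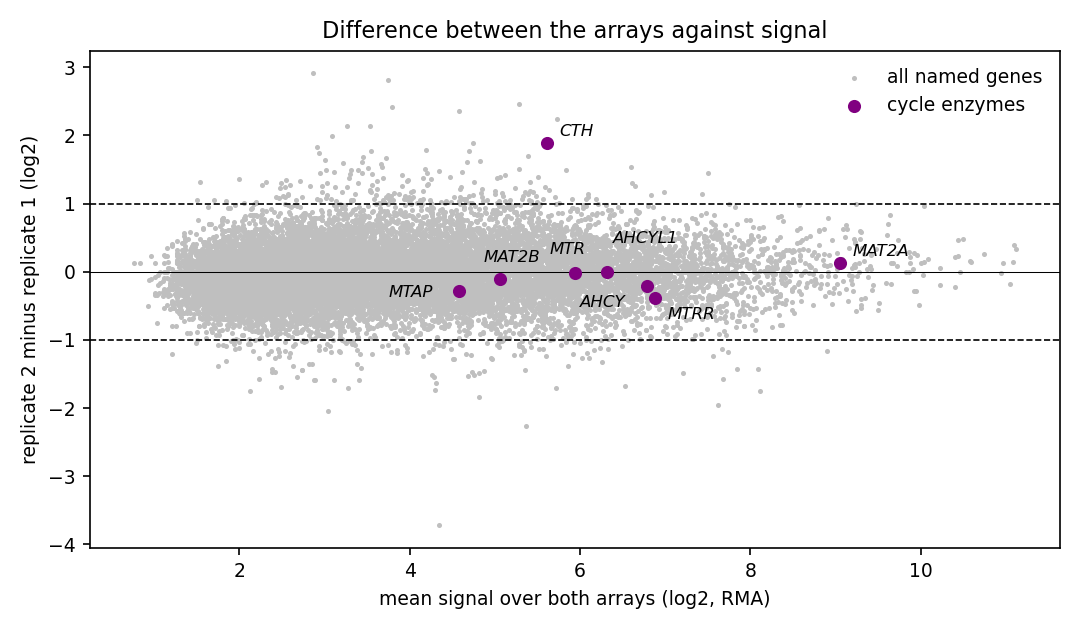
Difference between the arrays (replicate 2 minus replicate 1, log2, y axis) against the mean signal over both arrays (log2, RMA, x axis) for 18404 named genes (grey) and the 8 measured cycle enzymes (purple). Dashed lines mark a difference of 1 in either direction. CTH lies at 1.89, and the other 7 enzymes lie between -0.38 and 0.13.

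MTAP, the phosphorylase that splits methylthioadenosine, read 4.44 on replicate 2 and 4.72 on replicate 1 (4.58 ± 0.20, SD, n = 2), above the olfactory threshold and below the second on both arrays. The gene lies in 9p21 beside the inhibitor genes CDKN2A and CDKN2B, a region that is often lost in leukaemia. CDKN2A read 3.28 on replicate 2 and 3.48 on replicate 1, and CDKN2B 3.38 on replicate 2 and 3.28 on replicate 1, all between the olfactory and the second threshold. Of 9 measured neighbours 6 were above the olfactory threshold, against 55.8% of all named genes. Above both was 1, FOCAD (5.50 on replicate 2 and 5.46 on replicate 1), against 17.1%. DMRTA1 (3.01 on replicate 2, 3.17 on replicate 1), KLHL9 (3.45 on replicate 2 and 3.02 on replicate 1) and HACD4 (3.45 on both arrays) passed the olfactory threshold only. MLLT3 passed it on replicate 2 only (3.14, and 2.95 on replicate 1), and IFNE (1.35 on replicate 2 and 1.20 on replicate 1) and ELAVL2 (1.43 on replicate 2 and 1.53 on replicate 1) on neither array. Copy number was not measured, so these signals do not show whether any of these genes is present or deleted.

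Other genes of the pathway, and genes related to it, were counted in 12 lists of 134 genes, of which 124 were measured. The 124 include 9 neighbours of MTAP on 9p21 and 18 amino acid response genes, which are not steps of the pathway. The term pathway genes is used here for all 124. A total of 98 were above the olfactory threshold on both arrays, against 55.8% of all named genes, and 43 above the second, against 17.1%. By more than 1, 4 were higher on replicate 2 (ALDH1L2, PSAT1, PSPH and STC2), against 1.08% of all named genes. Of the 4, PSAT1, PSPH and STC2 belong to the amino acid response list, drawn up knowing that such genes were higher on replicate 2. Only ALDH1L2 comes from another list, so that count is no independent result beside the 1.08%. Lower by more than 1 was 1 gene (PRMT7), against 0.88%. With the highest probe set per gene PSPH no longer passed and 3 were higher. The median difference of the 124 was -0.01. Of all named genes 52.6% were lower and 42.1% higher on replicate 2, the rest being equal, and 50.2% were lower after quantile normalization and 49.1% after loess. The counts by direction below are to be read beside these shares. Of 8 measured cycle partners 5 passed the olfactory threshold, near the share of all named genes, among them SLC25A26, the mitochondrial SAM carrier (5.30 on replicate 2 and 5.65 on replicate 1). BHMT, the betaine-dependent enzyme known from liver and kidney, did not (2.00 on replicate 2 and 2.45 on replicate 1). The median difference of this list was -0.28, with 7 of 8 genes lower on replicate 2 (6 of 8 after quantile normalization and after loess).

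Methionine salvage and polyamine genes were above the olfactory threshold in 13 of 13 cases, against 55.8% of all named genes. Above the second were 8, against 17.1%. ODC1, which starts polyamine synthesis, read 9.03 on replicate 2 and 9.57 on replicate 1. SRM, the spermidine synthase whose reaction releases methylthioadenosine, read 7.17 on replicate 2 and 8.09 on replicate 1, the largest difference of that list (-0.92). SMOX, the spermine oxidase, read 3.68 on replicate 2 and 3.20 on replicate 1. The list's median difference was 0.00, against the -0.04 of all named genes.

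Beside 55.8% of all named genes, 8 of 11 sulfur and glutathione genes were above the olfactory threshold. The transaminase GOT1 was above it, at 6.83 on replicate 2 and 6.38 on replicate 1. The cysteine dioxygenase CDO1 (2.72 on replicate 2 and 2.39 on replicate 1) was not, and CSAD, a decarboxylase of taurine synthesis (2.78 on replicate 2 and 3.40 on replicate 1), was so on replicate 1 only. The list's median difference was 0.14, and its differences ran from -0.62 to 0.61, below the 1.89 of CTH. Of 11 genes of cobalamin supply 8 passed, with MMADHC, which directs cobalamin to its enzymes, at 7.84 on replicate 2 and 7.37 on replicate 1. The transporter TCN2 read 2.36 on replicate 2 and 2.90 on replicate 1, and the receptor CUBN 1.87 on both arrays. Of 4 methionine sulfoxide reductases 4 passed, with MSRA at 4.74 on replicate 2 and 4.82 on replicate 1. MSRB2 read 3.98 on replicate 2 and 3.76 on replicate 1, and MSRB1 3.59 on replicate 2 and 4.47 on replicate 1.

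Of 11 folate genes 10 were above the olfactory threshold, against 55.8% of all named genes. A difference above 1 was seen in 1 gene, ALDH1L2, the mitochondrial formyltetrahydrofolate dehydrogenase. It read 6.24 on replicate 2 and 4.54 on replicate 1, a difference of 1.70, while its cytosolic paralog ALDH1L1 read 2.90 on replicate 2 and 2.71 on replicate 1. The thymidylate synthase TYMS read 9.51 on replicate 2 and 9.68 on replicate 1. Of 7 genes listed for methionine uptake 6 passed and 6 were higher on replicate 2, with a median difference of 0.34. SLC38A2 read 10.05 on replicate 2 and 9.22 on replicate 1, and SLC7A8 2.69 on replicate 2 and 2.66 on replicate 1.

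Genes of the amino acid response, which the factor ATF4 drives and of which CTH is a known target, were listed with the knowledge that such genes were higher on replicate 2, and give no independent support. Of 18 measured genes 15 were higher on replicate 2, with a median difference of 0.71. STC2, a secreted glycoprotein, read 5.58 on replicate 2 and 3.81 on replicate 1. PSAT1, an enzyme of serine synthesis, read 7.57 on replicate 2 and 6.40 on replicate 1. PSPH, the last enzyme of that route, read 4.27 on replicate 2 and 2.76 on replicate 1 as the mean of 2 probe sets, and was below the olfactory threshold on replicate 1. Its brighter probe set read 5.00 on replicate 2 and 4.00 on replicate 1, and the other 3.54 on replicate 2 and 1.51 on replicate 1. ATF3, a factor of the same response, read 3.29 on replicate 2 and 2.50 on replicate 1, and was also below the olfactory threshold on replicate 1. The 3 lower genes were ASNS, PHGDH and ATF4. ASNS, the asparagine synthetase and a standard target of the response, read 7.30 on replicate 2 and 7.59 on replicate 1. PHGDH, also of serine synthesis, read 5.66 on replicate 2 and 5.77 on replicate 1. ATF4 itself read 5.84 on replicate 2 and 5.85 on replicate 1 as the mean of 2 probe sets, whose differences were -0.30 and 0.28. The granule markers given above were lower on replicate 2 in 3 of 5 cases. The part of either group in the CTH difference was not tested.

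The users of SAM were counted in 3 lists, beside the 55.8% of all named genes above the olfactory threshold. Of 14 DNA and RNA methyltransferases 11 passed. DNMT1 read 6.67 on replicate 2 and 7.00 on replicate 1, and the de novo enzyme DNMT3A 4.75 on both arrays, while DNMT3B passed on replicate 2 only (2.95, and 2.82 on replicate 1). METTL5, which methylates ribosomal RNA, read 8.91 on replicate 2 and 8.67 on replicate 1. PCIF1, the cap adenosine methyltransferase, read 3.96 on replicate 2 and 4.70 on replicate 1. TRDMT1, a transfer RNA methyltransferase, read 2.44 on replicate 2 and 2.33 on replicate 1. METTL16, which controls splicing of the MAT2A transcript, passed on replicate 1 only (2.61 on replicate 2 and 3.08 on replicate 1). The list's median difference was -0.22, with 9 of 14 genes lower on replicate 2 (10 of 14 after quantile normalization and after loess).

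Of 12 arginine methyltransferases and partners 10 passed, and 9 were lower on replicate 2, with a median difference of -0.23. PRMT5, an enzyme that methylthioadenosine, the substrate of MTAP, inhibits, read 6.54 on replicate 2 and 7.42 on replicate 1, a difference of -0.88. PRMT7 read 2.08 on replicate 2 and 3.17 on replicate 1, the 1 pathway gene lower by more than 1, and was below the olfactory threshold on replicate 2. RIOK1, an adaptor of PRMT5, read 7.87 on replicate 2 and 7.63 on replicate 1. Of 6 measured small-molecule methyltransferases 2 passed, with GAMT of creatine synthesis at 4.15 on replicate 2 and 3.86 on replicate 1 and PEMT of phosphatidylcholine synthesis at 3.49 on replicate 2 and 4.16 on replicate 1. HNMT, which inactivates histamine, did not (1.65 on replicate 2 and 2.18 on replicate 1). The list's median difference was -0.52 (-0.40 after quantile normalization and after loess), with 5 of 6 genes lower on replicate 2. Among the 2 that passed the median was -0.18, so the list median rests mostly on genes near background.

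**Figure D4:**
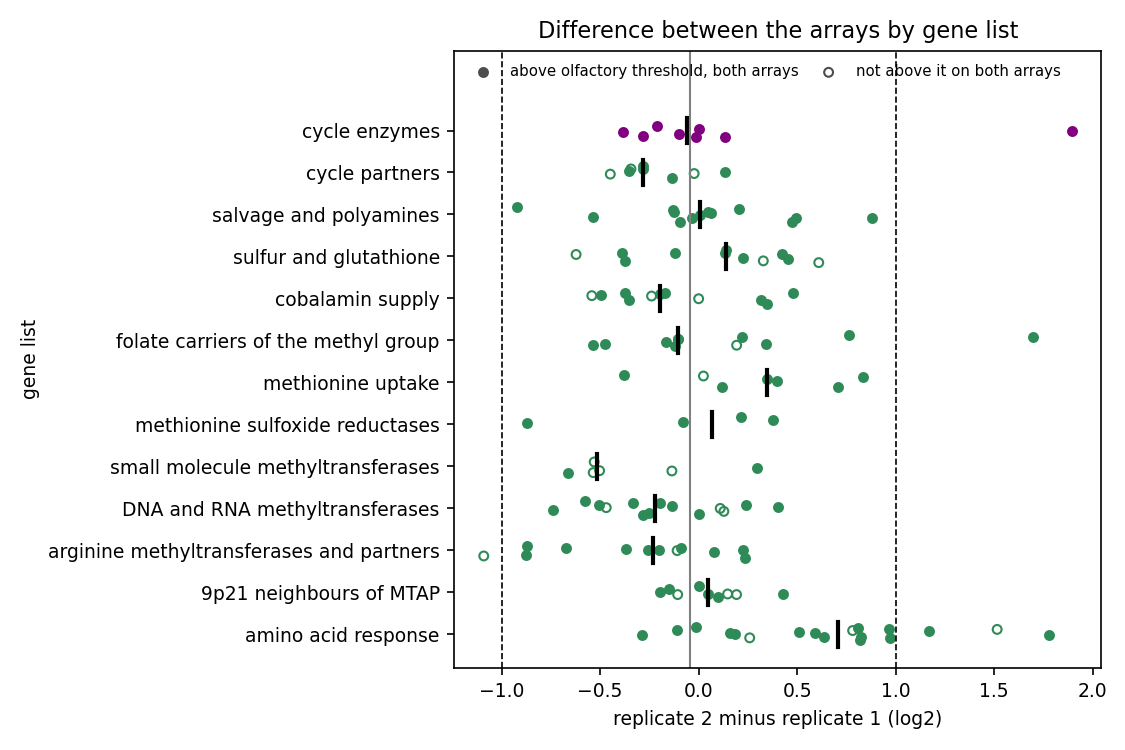
Difference between the arrays (replicate 2 minus replicate 1, log2, x axis) of each measured gene, by list (y axis); filled points were above the olfactory threshold on both arrays and open points were not. Black bars are list medians, the grey line is the median of all named genes (-0.04) and dashed lines mark a difference of 1. The amino acid response list, drawn up knowing that such genes were higher on replicate 2, has the median farthest to the right (0.71). CTH and ALDH1L2 are the points farthest right in their lists, at 1.89 and 1.70.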

How the data were processed

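Total RNA of HL-60 was amplified and biotin-labelled from 200 ng per sample and hybridised to 1 array each, per the labels' protocols. The authors deposited 1 log2 signal per probe set and array, computed with RMA per the submitters' processing notes. Software, version and the arrays that entered RMA together: not given in the sources used here. No label states the log base, which was taken as 2, the base of RMA. The number of arrays limits the precision. Detection p-values and scan batches were not used here.

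Of 32321 probe sets 19158 carried 1 symbol, 1388 several and 11775 were not listed in the platform annotation. Symbols were updated through Entrez IDs (19128 found in RefSeq, GRCh38.p14), and probe sets of 1 gene were averaged. Promoters are those of RefSeq, GRCh38.p14. Members and lists were chosen with earlier results of these data known. Named were all members, the whole 9p21 list and 7 fixed genes. Per list, the genes with the highest and the lowest signal, the largest difference or a difference above 1 were also named. The promyelocyte markers, CD79A, ATF4 and PHGDH were named after their values were seen. No p-values were computed. Alternatives were quantile normalization, a loess trend, the highest probe set per gene, annotation symbols, a 99th percentile threshold, the second threshold, each array alone, a filter on dim members and a 1.5-fold limit. The procedure was tested on simulated data. Python 3.11.15, numpy 2.4.6, pandas 2.3.3, statsmodels 0.14.6 and matplotlib 3.10.9 were used.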

Additional observations from a re-analysis of the deposited data

Results flagged for a closer look

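The probe set that carries the symbols CBS and LOC102724560 gave a signal outside the members' own measurement. It read 3.88 on replicate 2 and 3.50 on replicate 1, with a mean of 3.69, above the olfactory threshold on both arrays, and cannot be assigned to either locus.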

How the results depend on the processing

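No paired analysis was possible because the 2 arrays form a single group. Among 27 recomputations of the main counts and the median, 25 moved by no more than 1.5 times or than the SD of an array. Several could not change the member values, because each of the 8 members has 1 probe set and passed the olfactory threshold. The SD of an array, 0.28, is also larger than the median difference itself, so the tally is a weak check. With the second background set as threshold 5 in place of 8 members and 43 in place of 98 pathway genes were above it, since that threshold is higher. With the 99th olfactory percentile as threshold 8 members and 76 pathway genes were above it. On each array alone 8 members passed, and 101 to 105 pathway genes did. The CTH difference was 1.88 under quantile normalization and under loess. The highest probe set, annotation symbols and the filter on dim members left it at 1.89. Those settings could not change it, since CTH has 1 probe set, kept its symbol and passed the threshold. CTH alone passed the 1.5-fold limit. After quantile normalization the median difference was -0.08 over the members and -0.001 over all named genes, against -0.06 and -0.04 as deposited. Differences between the arrays cannot be recomputed without either array.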
